A study of Arabidopsis thaliana with 2 samples.

Results

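RNA sequencing of Arabidopsis thaliana leaf explants was used to follow 10 genes known for their response to low phosphate. These were the regulators SPX1 (AT5G20150) and SPX3 (AT2G45130), the phosphate carriers PHT1;1 (AT5G43350) and PHT1;4 (AT2G38940), the RNA IPS1 (AT3G09922) and the phosphatase PAP17 (AT3G17790). The others were the membrane lipid enzymes SQD1 (AT4G33030), SQD2 (AT5G01220), MGD2 (AT5G20410) and MGD3 (AT2G11810). They were chosen by locus identifier, and all 10 were found among the 33602 loci of the count tables. Both libraries came from first-pair rosette leaves of plants 12 days after sowing, from a line labelled pER8:3xFlag-NAC1/Col-0, in which an estradiol-dependent activator drives a Flag-tagged NAC1, a NAC-family transcription factor. Explants were kept on B5 medium with estradiol in DMSO for the estradiol group, or with DMSO alone for the control group. Both groups therefore carried the transgene, and effects of estradiol itself and of NAC1 cannot be told apart. Each group has 1 library, so every difference below is between 2 libraries and has no replicate check. The sources used here do not give the length of the treatment.

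In plants with enough phosphate, SPX proteins bind inositol pyrophosphates and hold back the transcription factor PHR1. When phosphate runs low, PHR1 is released and binds a short promoter motif called P1BS in the genes of uptake, recycling and signalling. The microRNA miR399 then lowers PHO2, which otherwise removes phosphate carriers, and the RNAs IPS1 and AT4 act as decoys for miR399. Phosphate is also spared by replacing phospholipids of membranes with sulfolipid and galactolipids. In leaves, as in roots, such genes are widely used as a readout of phosphate status.

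The P1BS motif, GNATATNC on either strand (it reads alike on both), was searched in the TAIR10.1 genome relative to each gene's annotated RefSeq start. In the 1000 bases before the start it was present in 6 of the 10 genes, against 19.7% of 32834 loci. In a window of 250 bases before to 50 bases after the start it was present in 5 of 10, against 6.09%. The sites of SPX1 and PHT1;1 in the longer window are shown because these are the genes that differed most. With them is 1 site each of SPX3, SQD2 and MGD2, as examples of genes that carry the motif and were not called. SPX1 has 1 further site in the shorter window, which does not lie wholly before the start and is not shown. IPS1 also carries it in the longer window and PHT1;4 and SQD1 in the shorter window only, and these were not called either. SPX3 and IPS1 had too few counts to be called. Each sequence runs 5′ to 3′ on the strand of the gene, with the P1BS in capitals.
SPX1, TAIR10.1 chr5:6801536-6801565, plus strand, motif from base -735: tttcctatcaaGAATATTCcatggaatcca
PHT1;1, chr5:17402926-17402955, minus strand, motif from base -786: tatgttctcgcGAATATCCtatgtttttcg
PHT1;1, chr5:17402908-17402937, minus strand, motif from base -768: ctatgtttttcGAATATGCttttttaaaat
SPX3, chr2:18606186-18606215, plus strand, motif from base -213: tattagagaccGAATATGCcagaggatttg
SQD2, chr5:90439-90468, minus strand, motif from base -340: ttatgtgaagcGAATATTCattggaataga
MGD2, chr5:6896438-6896462, plus strand, motif from base -14: tatatactactGAATATTCttttgt
SPX1, SQD2 and MGD2 hold the same 8 letters at these sites. A match is a description of the sequence and does not show that PHR1 binds there.

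The control library held 39799127 gene counts and the estradiol library 48350705. Counts were scaled to the library size as CPM, with TMM factors. A gene counts as measured with at least 10 counts in 1 or both libraries, which 20274 loci reached. It is called higher or lower when the exact 95% interval of its ratio, which covers counting error only, lies wholly above 2 or wholly below 0.5. NAC1 rose from 466 to 28380 counts, a ratio of 49.4 (45.1 to 54.3), and transgene and native transcripts were not separated in the counting. The NAC1 locus overlaps other annotated genes. All 6 leaf mesophyll markers were well covered, summing to 7953 CPM (control) and 6230 CPM (estradiol). The 5 root markers summed to 0.506 and 0.123 CPM, with EXPA7 and PLT1 at 0 counts in both.

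Of the 10 genes, 8 were measured. SPX1 and PHT1;1 were called lower with estradiol, none was called higher, and 6 were neither. Among all measured genes 4.64% were called lower and 5.38% higher. Past 4-fold, the same 2 genes were lower, beside 0.794% of all measured genes lower and 2.31% higher. With intervals widened for an assumed coefficient of variation of 0.2 between libraries, they were again lower, beside 1.87% lower and 3.42% higher. The median log2 ratio of the 8 measured genes was -0.29, beside 0.01 for all measured genes. Of the 8, 7 had a log2 ratio below 0, beside 10009 of all 20274 measured loci. Among the 7, PAP17, SQD1, SQD2 and MGD2 were only 1.08-, 1.18-, 1.22- and 1.23-fold lower. The 2 genes that were not measured, SPX3 and IPS1, were at or near 0 in both libraries.

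**Figure D1:**
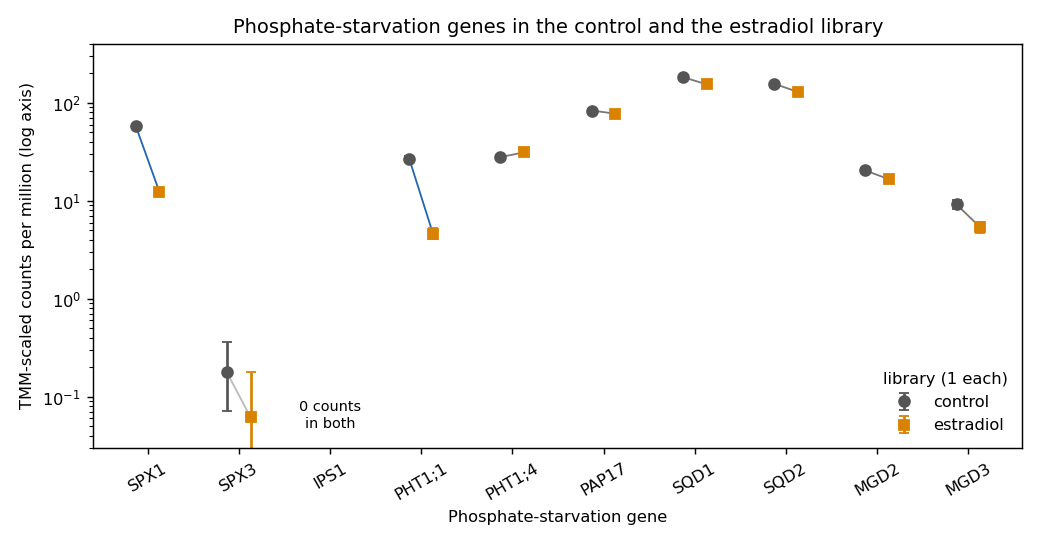
TMM-scaled CPM (log axis) of the 10 phosphate-starvation genes in the control (circles) and the estradiol library (squares), with exact 95% Poisson intervals for counting error. The lower interval end of SPX3 in the estradiol library runs off the axis. SPX1 and PHT1;1 dropped (blue lines), MGD3 was 1.72-fold lower without being called, and IPS1 had 0 counts in both libraries. The other 5 of the 8 measured genes lay within 1.5-fold between the libraries, beside 14114 of all 20274 measured loci.

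SPX1 encodes a nuclear SPX protein that binds PHR1 when phosphate is ample, and its own gene is a PHR1 target. It dropped from 2314 counts without estradiol to 603 with it, or from 58.6 to 12.4 CPM. The estradiol library was 4.73-fold lower (95% counting interval 4.32 to 5.18). Only 1.49% of measured genes had a lower log2 ratio than SPX1. SPX3, a related PHR1 inhibitor that is strongly induced by phosphate starvation, had 7 and 3 counts and was too low to compare. The interval of its ratio ran from 0.058 to 1.52 and so spanned both directions.

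The other SPX genes did not pass the threshold. SPX2 had 1600 and 1601 counts, a ratio of 0.812 (0.757 to 0.871). SPX4, another inhibitor of PHR1, had 331 and 242 counts, a ratio of 0.593 (0.501 to 0.702). Per kilobase of exon, SPX1 was 1.55 times as abundant as SPX2 in the control (1.45 to 1.65) and 0.403 times in the estradiol library (0.367 to 0.443), so the order of these genes was inverted between the libraries. PHR1 itself had 2578 and 3593 counts, or 65.2 and 73.8 CPM, a ratio of 1.13 (1.07 to 1.19). It overlaps another annotated gene, and the strand setting of the counting is not given, so its counts are uncertain.

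PHT1;1 and PHT1;4 encode plasma membrane phosphate-proton symporters, best known for uptake by roots. PHT1;1 dropped from 1059 counts without estradiol to 225 with it, or from 26.8 to 4.62 CPM. It was 5.80-fold lower with estradiol (5.02 to 6.73), and 0.996% of measured genes had a lower log2 ratio. PHT1;4 had 1105 and 1526 counts, a ratio of 1.12 (1.04 to 1.21). The pair stood at nearly the same level in the control and apart in the estradiol library: per kilobase of exon PHT1;4 was 1.05 times PHT1;1 in the control (0.964 to 1.14) and 6.83 times in the estradiol library (5.93 to 7.89). The sum of the 5 root markers was also smaller in the estradiol library, at 0.123 against 0.506 CPM. It rested on WOX5 (13 and 4 counts, neither higher nor lower) and CASP1 (6 and 1 counts, not measured), while COBL9 had 1 count in each. None of the 5 was called, and their part in the PHT1;1 result was not tested. In bulk tissue, fewer cells of a type and less RNA per cell cannot be told apart.

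Reads of PHT1;1 can be confused with those of its neighbours, since its transcript is 97.7% identical to PHT1;2 over 1577 bases and 90.2% identical to PHT1;3 over 1558 bases. PHT1;2 had 9 and 7 counts and PHT1;3 had 0 in both. With the 3 genes summed there were 1068 and 232 counts, 5.67-fold lower (4.92 to 6.57). The rest of the family had few or no counts: PHT1;5 had 15 and 34 counts (ratio 1.84, 0.975 to 3.63), PHT1;7 and PHT1;9 each had 0 and 1, and PHT1;6 and PHT1;8 had 0 in both.

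IPS1, the founding target mimic of miR399, had 0 counts in both libraries. The floor of 3 counts used here stands at 0.0759 CPM (control) and 0.0616 CPM (estradiol). AT4 (AT5G03545), a relative of IPS1, had 146 and 65 counts, or 3.69 and 1.33 CPM. It was called lower, at a ratio of 0.361 (0.265 to 0.487). Of the decoy pair, only AT4 could therefore be compared. The sequences of the pairing are shown because they set the decoys apart from the true target. The microRNA is given with its seed (bases 2 to 8) in capitals. The decoys carry 3 bases between the parts that pair with miR399, opposite the position where the target is cut, and these bases are in capitals.
ath-miR399b: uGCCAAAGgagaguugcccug
IPS1, transcript bases 236 to 259: ttgggcaacttCTAtcctttggca
AT4, transcript bases 568 to 591: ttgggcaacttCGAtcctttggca
PHO2, transcript bases 680 to 700: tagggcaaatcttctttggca
Only the best match in each transcript was kept, so any further sites are not shown. Outside the extra bases, IPS1 and AT4 each had 3 positions that do not match the perfect complement of miR399b. The PHO2 site shown had 2 against miR399a without any extra base. PHO2, the ubiquitin-conjugating enzyme that miR399 targets, had 6938 and 9777 counts, or 176 and 201 CPM, a ratio of 1.14 (1.11 to 1.18). NLA, a ubiquitin ligase gene listed here with this module, had 497 and 605 counts, a ratio of 0.988 (0.876 to 1.11). No miR399 site was searched in NLA. It overlaps other genes. The 6 MIR399 precursor loci held 1 count in all, in MIR399B in the control, so the microRNA side of the module was not measured here.

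PAP17 encodes a purple acid phosphatase induced by phosphate starvation, senescence and oxidative stress. It had 3306 and 3779 counts, or 83.7 and 77.6 CPM, a ratio of 0.928 (0.885 to 0.972). PAP17 overlaps its neighbour AT3G17800 on the annotation. Its level was thus nearly the same in both libraries, unlike several of its relatives described below.

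The 4 lipid genes had ratios below 1 and none passed the threshold. SQD1, which makes the sulfoquinovose head group, had 184 and 155 CPM, a ratio of 0.844 (0.817 to 0.872) from 7255 and 7546 counts. SQD2, which transfers that group to diacylglycerol, had 157 and 129 CPM, a ratio of 0.822 (0.794 to 0.852) from 6219 and 6300 counts. These steps of sulfolipid synthesis kept close proportions, with SQD1 at 1.39 times SQD2 per kilobase of exon in the control (1.34 to 1.44) and 1.43 times in the estradiol library (1.38 to 1.48).

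MGD2 and MGD3 encode the galactolipid synthases of the outer plastid envelope that serve lipid exchange under low phosphate. MGD2 had 807 and 809 counts, or 20.4 and 16.6 CPM, a ratio of 0.814 (0.737 to 0.898). MGD3 had 364 and 261 counts, or 9.21 and 5.36 CPM, and was 1.72-fold lower (1.46 to 2.02). Among the measured genes of the 10 that were not called, MGD3 had the ratio nearest to the threshold. Only the far end of its interval reached past 2-fold, while a call needs the whole interval there.

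Ordered by CPM per kilobase of exon in the control, the genes ran SQD1 (96.2), SQD2 (69.2), PAP17 (50.5), SPX1 (48.6), PHT1;4 (13.99), PHT1;1 (13.3), MGD2 (10.7) and MGD3 (4.78). The counting intervals of PAP17 and SPX1 overlapped, as did those of PHT1;4 and PHT1;1. In the estradiol library the order was SQD1 (81.2), SQD2 (56.9), PAP17 (46.8), PHT1;4 (15.7), SPX1 (10.3), MGD2 (8.69), MGD3 (2.78) and PHT1;1 (2.30), with only the last pair overlapping. The upper positions were held by the same genes, while SPX1 fell behind PHT1;4 and PHT1;1 dropped to the end.

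**Figure D2:**
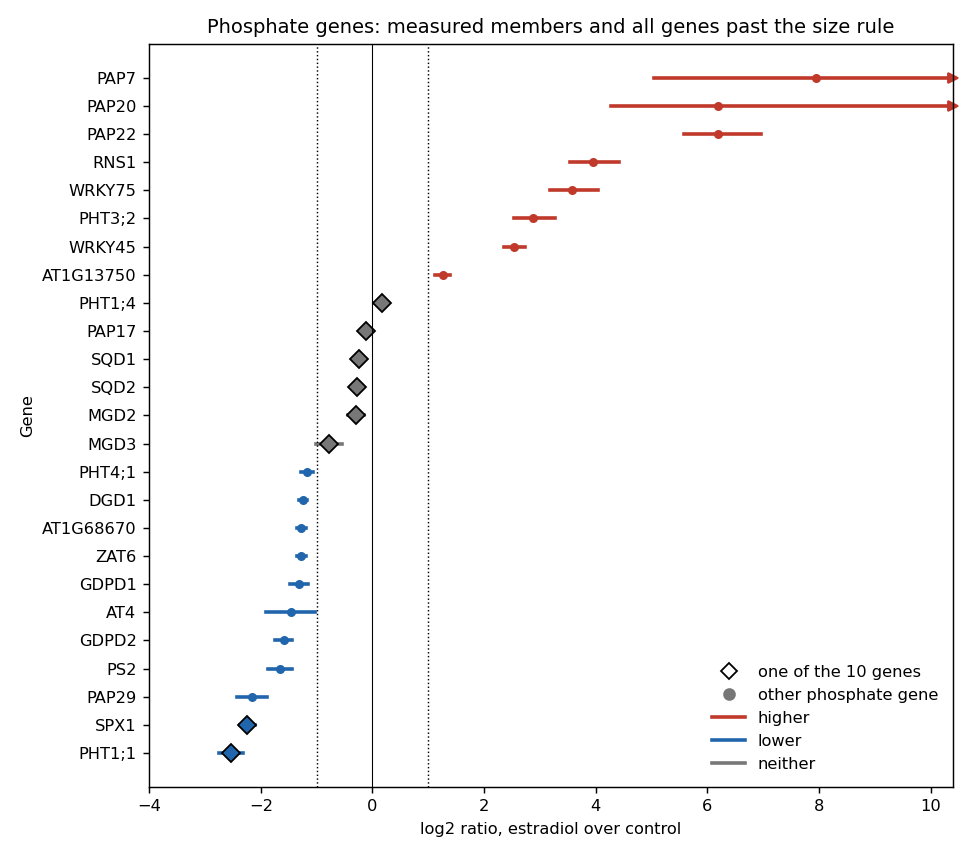
Log2 ratio of the estradiol over the control library for the 8 measured genes of the 10 (diamonds) and every other phosphate gene called higher (red) or lower (blue), with exact 95% counting intervals. Dotted lines mark 2-fold and arrows mark intervals that run past the axis. SPX1 and PHT1;1 lie at the low end, and the point of PAP7, which had 0 control counts, depends on the prior count of 0.5.

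A further 112 genes of phosphate sensing, the miR399 module, transport, phosphate release and membrane lipids gave the context of the 10. Of these 85 were measured, 8 were called higher (9.41%) and 9 lower (10.6%), beside 5.38% and 4.64% of all measured genes, with a median log2 ratio of -0.10 beside 0.01. By role, counting the 10 as well, 2 of 26 measured sensing and transcription genes were higher and 3 lower, and 1 of 22 transport genes was higher and 2 lower. Of 25 phosphate release genes 5 were higher and 2 lower, and of 17 lipid genes none was higher and 3 lower. Each role holds few genes, and its shares are read against the same 5.38% and 4.64%. Those of sensing (7.69% higher and 11.5% lower) and transport (4.55% and 9.09%) lie within 2 genes of them. Phosphate release had 20.0% higher and lipids 17.6% lower, but the lipid share rests on 3 genes, as many as were lower in sensing. The median log2 ratios were -0.02 for sensing, -0.35 for transport, 0.12 for phosphate release and -0.27 for lipids. The place of PAP7, which had no control count, does not change the median of phosphate release. Of the miR399 module 3 of 11 genes were measured, 1 of them lower and none higher.

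**Figure D3:**
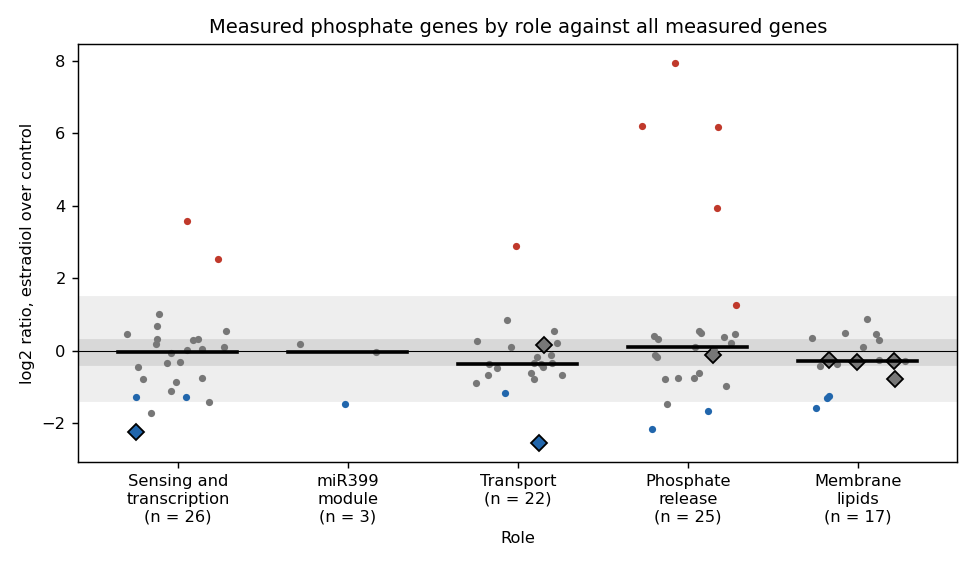
Log2 ratio of each measured phosphate gene by role (diamonds for genes of the 10, red for called higher, blue for lower, grey for neither), with the median of each role as a bar. The dark band holds the middle part of all measured genes from the 25th to the 75th percentile (log2 ratio -0.38 to 0.31) and the light band the 5th to the 95th. Phosphate release holds the highest points, and the value of PAP7 depends on the prior count.

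Several genes of phosphate release rose from few or no counts, and none of these is among the 10. PAP22, a purple acid phosphatase gene, rose from 19 counts to 1748 with estradiol, a ratio of 74.7 (47.7 to 124). PAP7 had 0 and 151 counts, at least 40.8-fold higher against a floor of 3 counts in the control, and the lower end of its exact 95% interval was 32.8-fold. PAP20 had 1 and 135 counts, a ratio of 110 (19.3 to 4359). RNS1, a ribonuclease gene known from phosphate starvation, senescence and wounding, had 47 and 905 counts, a ratio of 15.6 (11.7 to 21.4). AT1G13750, annotated as a purple acid phosphatase, went from 633 to 1863 counts, a ratio of 2.39 (2.18 to 2.62). It overlaps another gene. In the other direction PAP29 fell from 530 to 146 counts, at a ratio of 0.224 (0.185 to 0.269). Across the 27 purple acid phosphatase genes, 20 were measured, 4 of them higher and 1 lower, so that PAP17 was among 15 that were neither.

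The pyrophosphatase gene PS2, named for its induction by phosphate starvation, went the way of SPX1. It had 645 and 252 counts, or 16.3 and 5.17 CPM, a ratio of 0.317 (0.273 to 0.367). The glycerophosphodiester phosphodiesterase genes GDPD1 and GDPD2, whose products release glycerol-3-phosphate from deacylated phospholipids, were also lower. GDPD1 had 903 and 448 counts (ratio 0.403, 0.359 to 0.451) and overlaps AT3G02030 over 681 bases, and GDPD2 had 1182 and 485 counts (ratio 0.333, 0.299 to 0.370). DGD1, the main digalactolipid synthase gene, had 4564 and 2370 counts, a ratio of 0.421 (0.401 to 0.443). Its low-phosphate counterpart DGD2 had 822 and 1295 counts, a ratio of 1.28 (1.17 to 1.40). Per kilobase of exon DGD1 went from 3.95 times DGD2 in the control (3.67 to 4.26) to 1.30 times (1.22 to 1.39). The leaf mesophyll markers given above also summed to less in the estradiol library, at a ratio of 0.783, with LHCB2.1 called lower. Smaller sums were not particular to mesophyll. The guard cell, phloem and epidermis markers, 2 genes each, had ratios of 0.748, 0.845 and 0.924, with none called. The part of these cell types in the lipid and transport values was not tested.

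Transcription factor genes linked to phosphate moved both ways. WRKY75, a regulator of phosphate acquisition and of senescence and defence, had 50 and 742 counts, a ratio of 12.0 (9.04 to 16.4). WRKY45, an activator of PHT1;1 in Arabidopsis roots, had 255 and 1830 counts, a ratio of 5.82 (5.11 to 6.67), while PHT1;1 itself was lower. ZAT6, a zinc finger gene of phosphate and stress responses, fell from 3649 to 1859 counts (ratio 0.413, 0.391 to 0.437). AT1G68670, annotated as a myb-like transcription factor, fell from 3616 to 1843 (ratio 0.414, 0.391 to 0.438). Among transporters outside the PHT1 family, the mitochondrial carrier gene PHT3;2 rose from 73 to 668 counts (ratio 7.43, 5.83 to 9.59), and the plastid carrier gene PHT4;1, which overlaps another gene, fell from 2160 to 1182 (ratio 0.444, 0.413 to 0.477).

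Taking the 27 genes classed here as induced by low phosphate, the 10 included, 22 were measured. The class follows no stated criterion and was chosen with earlier results of these data known, so its shares depend on that choice. Called genes outside it include WRKY45 and PHT3;2, which were higher, and GDPD2, which was lower. Of these 5 were called lower (SPX1, PHT1;1, PS2, AT4 and GDPD1) and 2 higher (RNS1 and WRKY75), with a median log2 ratio of -0.27. These are 22.7% lower and 9.09% higher, beside 4.64% and 5.38% of all measured genes with a median of 0.01, and the number higher is within 1 gene of the background. All 5 lower genes hold a P1BS in the 1000 bases before their start. Among the 12 measured genes with a P1BS there, 5 were lower and 1, WRKY75, was higher, with a median log2 ratio of -0.80. Among the 10 without one, 0 were lower and 1, RNS1, was higher, with a median of -0.14. With the window of 250 bases before to 50 after the start, 4 of 11 genes with the motif and 1 of 11 without were lower, and the medians were -0.26 and -0.28. This comparison was not tested, and the longer window was chosen after the values were seen. Over the whole phosphate list, the 10 included, 7 of the 11 genes called lower held a P1BS in the 1000 bases, as did 3 of the 8 called higher. GDPD2, DGD1, PAP29 and PHT4;1 were lower without one. Over all loci called lower, 21.9% held a P1BS in the 1000 bases, beside 21.8% of those called higher and 20.3% of all measured loci. The W-box core TTGAC or its complement, the motif of WRKY factors, was in the 1000 bases of all 10 genes and of 87.8% of all loci.

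**Figure D4:**
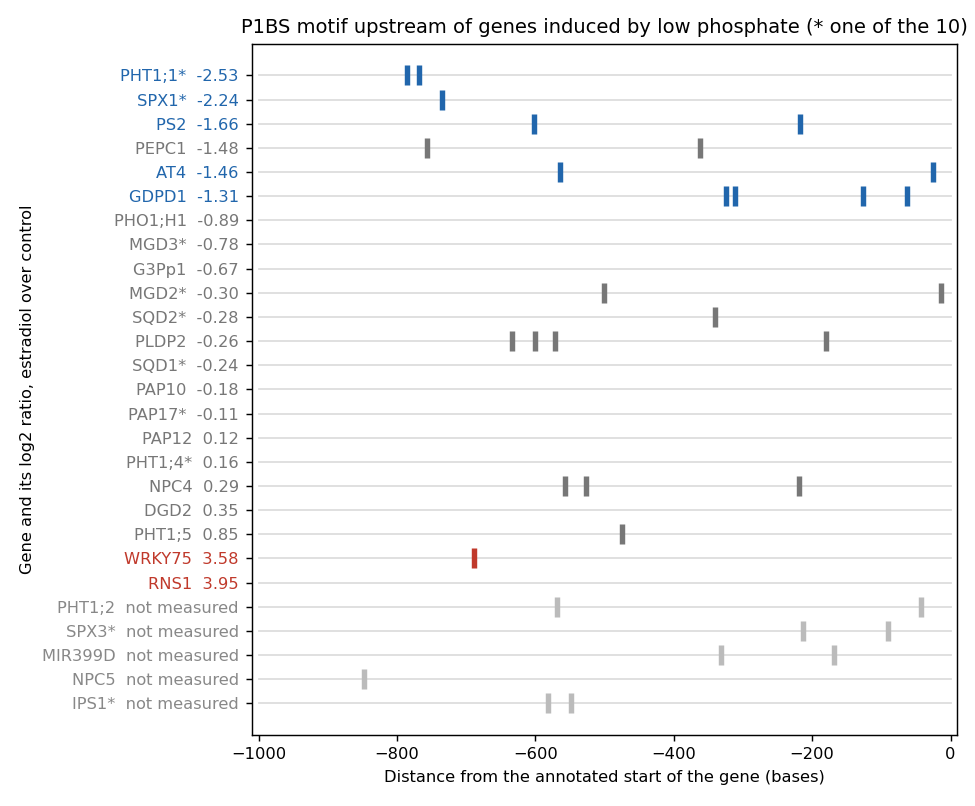
Position of each P1BS in the 1000 bases before the annotated start (0) of the 27 genes classed as induced by low phosphate, sorted by log2 ratio of estradiol over control (printed beside the name, in blue for called lower, red for higher and grey for neither or not measured, with asterisks on the 10 genes). The 6 lowest measured genes, from PHT1;1 at -2.53 to GDPD1 at -1.31, all carry the motif in this window. PEPC1 among them was not called, nor were MGD2, SQD2, PLDP2, NPC4 and PHT1;5, which carry it too, and WRKY75 was higher. The class was chosen with earlier results known and the window after the values were seen, so this order is a description and was not tested. In the shorter window PHT1;1 and PEPC1 lack the motif. There the median log2 ratios with and without it were -0.26 and -0.28.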

How the data were processed

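Total RNA of 1 control and 1 estradiol library was sequenced. Per library, the authors deposited a table of raw read counts per locus. HTSeq, FastQC, DESeq and TAIR10 are named per the submitters' processing notes. The aligner, annotation release and strand setting were not given in the sources used here. HTSeq's 5 summary lines were left out (ambiguous reads 2.05% of the control and 1.91% of the estradiol reads, reads outside features 0.742% and 0.693%).

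Library sizes were scaled with TMM factors (0.993 control, 1.007 estradiol; edgeR 4.0.16, R 4.3.3). Ratios carry exact 95% Clopper-Pearson intervals conditional on the summed counts; log2 ratios use a prior count of 0.5. No test was run, since each group has 1 library. Intervals and floors (3 counts) cover counting error only, and reads without molecular identifiers are not independent. Alternatives were DESeq2 1.42.0 size factors, library totals, other count minimums, a 4-fold threshold, an assumed variation between libraries and leaving out overlapping genes.

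Names, exon lengths, overlaps and sequences come from RefSeq on TAIR10.1, where 32835 of 33602 loci and all 122 list genes matched; its coordinates were not mixed with the count tables. Similar transcripts (at least 90% identity over 100 bases) were found with BLAST 2.17.0. The 10 genes, the lists and the rules were chosen with earlier results of these data known. Named genes are the 10, NAC1, every called gene of the list, all SPX and PHT1 genes, PHR1, PHO2 and any MIR399 locus with a read. NLA, DGD2, the genes of the P1BS plot and the similar neighbours fall outside that rule and were added after their values were seen. With 2 libraries no likeness of pattern between genes was computed.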

Additional observations from a re-analysis of the deposited data

How the results depend on the processing

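SPX1 and PHT1;1 stayed the 2 genes of the 10 called lower, and none was called higher, under each of the 7 alternatives run, and the median log2 ratio of the measured genes ranged from -0.30 to -0.27. DESeq2 size factors, library totals and other count minimums kept all 20 named calls, NAC1 included. With a threshold of 4-fold, 0 of the other phosphate genes were lower and 7 higher, 2 of the genes induced by low phosphate were lower, and of all measured genes 468 were higher and 161 lower. With intervals widened for an assumed coefficient of variation of 0.2 between libraries, 1 of the other phosphate genes (PAP29) was lower and 7 higher, and 2 of the induced genes were lower. Of all measured genes 694 (3.42%) were then higher and 379 (1.87%) lower. The calls of PS2, AT4, GDPD1, GDPD2, DGD1, ZAT6, PHT4;1, AT1G68670 and AT1G13750 were lost under both of these settings by construction, since their ratios lie nearer to 2-fold. Leaving out genes that overlap another gene, an alternative added after seeing the data, kept all 16 named calls it could give. No paired analysis was possible because each group has 1 library, and no library could be left out. With 1 library a group, true variation between explant batches is unknown. At these depths SPX3, IPS1, the MIR399 loci and most PHT1 genes had too few counts to be compared.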
